A study of Mus musculus with 56 samples.

Results

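Chemokines, interleukins, members of the tumour necrosis factor (TNF) family, interferons, colony-stimulating factors and their receptors were examined on a nylon cDNA microarray, as every spot whose gene symbol began with Ccl, Cxcl, Cxcr, Tnf, Ifn or Csf, or with Ccr or Il and a digit. This rule took 125 of the 9984 spots, from 90 gene symbols. They were 59 clones of ligands, 57 of receptors and 9 of other kinds, such as antagonists, binding proteins and TNF-induced genes. The RNA came from the lungs of female C57Bl/6J mice aged 7 weeks, anaesthetized with xylazine and ketamine, in which acute lung injury was induced by 20 µl of oleic acid (OA, 1.2 µl/g) injected in the tail vein. The lung of a mouse was taken after 1 hour (4 mice), 1.5 hours (6 mice), 3 hours (7 mice), 4 hours (4 mice), 18 hours (3 mice) or 24 hours (3 mice), and these 27 mice filled 50 microarrays. Control mice, also C57Bl/6J females anaesthetized in the same manner, received physiological serum, and were 8 in all, on 9 microarrays, with 2 mice for each of the times 1, 3 and 18 hours, 1 mouse for 1.5 and 1 for 24 hours. The stages compared were early (1 and 1.5 hours, 10 mice), intermediate (3 and 4 hours, 11 mice) and late (18 and 24 hours, 6 mice). Whole lung was measured, so that fewer cells of a type and less RNA per cell cannot be told apart.

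Chemokines are small secreted proteins that draw leukocytes along a gradient through receptors coupled to G proteins, interleukins and interferons signal through receptors that mostly use Janus kinases, and TNF-family ligands act through receptors that recruit TRAF and death-domain adaptors. In injured lung, neutrophil-attracting CXC chemokines, monocyte-attracting CC chemokines and cytokines such as TNF, interleukin 1 and interleukin 6 come from alveolar macrophages, epithelium and endothelium. No spot of the list used here carries the symbols Tnf, Il6, Il1a, Cxcl2, Cxcr2, Cxcr4, Csf3r, Ifngr1 or Tnfrsf1b, and these genes were not analysed. The levels below are the log2 values of the deposited table, averaged over the microarrays of a mouse. A spot number identifies the clone, and each clone was compared only with itself, because spots of different clones are not on a common scale. A member clone varied between mice of the same time point by an SD of 0.25 on the log2 scale (median over the 125 clones; 0.22 over all 7625 clones with a gene name). Microarrays of the same mouse varied by 0.26 (median over the members), with 23 of the 27 mice on more than 1 microarray. The mouse P7L2 at 1.5 hours stood apart, with a median correlation of 0.88 to the other OA mice over all clones, where the highest was 0.97.

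Most of these clones did not stand out from the empty spots, which the spot list marks with no gene. A clone was counted as above the empty spots in a mouse where its level was higher than 95% of the 512 empty spots on its own microarrays. Of the 125 member clones, 24 (19.2%) from 23 symbols were above in at least 14 of the 27 OA mice, against 31.9% of all clones, and 80 were above in none. Among ligands 11 of 59 clones were above in this sense, among receptors 9 of 57 and among the others 4 of 9. A mouse had between 10 and 38 member clones above the empty spots (median 26), with medians of 26.5, 26 and 22 in the early, intermediate and late stages. Of all clones, the median shares above in these stages were 34.75%, 34% and 30.25%. The level of the empty-spot threshold itself ran from 8.52 to 9.86 between mice. When the 99th percentile was taken as the threshold, 6 member clones were above in at least 14 mice. The 3 clones of alveolar or club cell markers, the check that this is lung, were above in the same sense, with a mean level between 11.73 and 12.24 in every OA mouse.

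**Figure D1:**
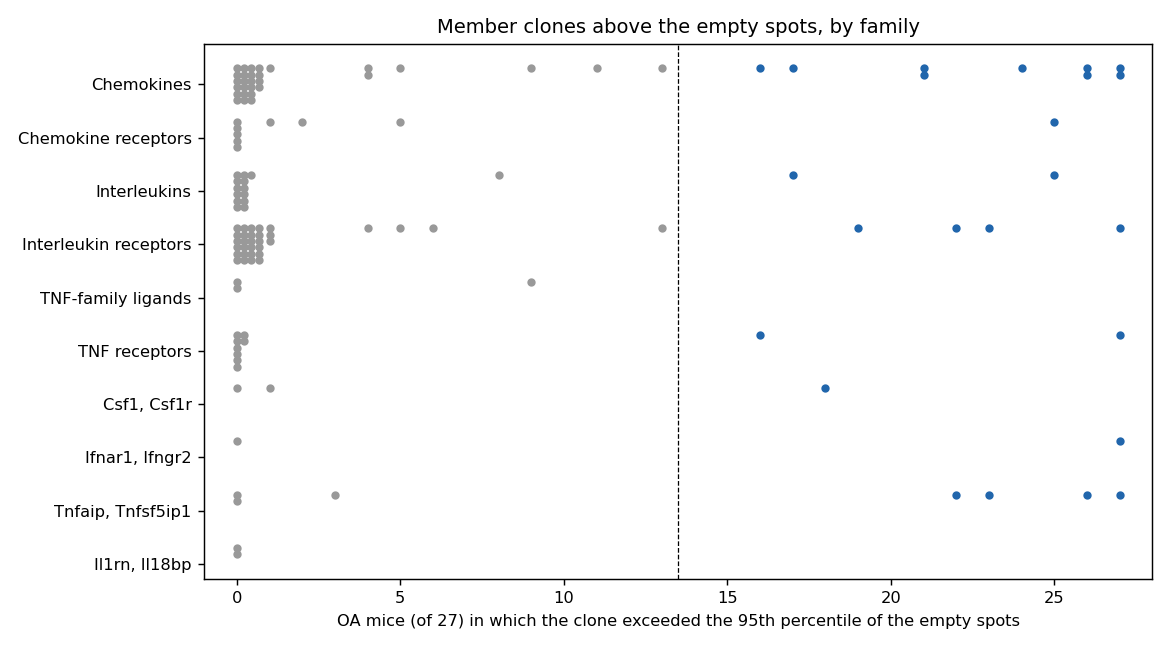
Number of OA mice (x axis, of 27) in which each member clone exceeded the 95th percentile of the empty spots, by gene family (y axis). Each point is 1 clone, the 24 in blue lie to the right of the dashed line at 14 or more mice, and 80 of the grey clones lie at 0, where points are spread sideways to be seen.

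Among the ligands, 2 chemokines were above the empty spots in all 27 OA mice, as 4.8% of member clones and 13% of all clones were. Cxcl15 (spot 7885), lungkine, a neutrophil-attracting chemokine made by airway epithelium, ran from 11.79 to 13.29 (median 12.39). Ccl24 (spot 5078), eotaxin-2, which acts on eosinophils through Ccr3, ran from 10.66 to 11.81 (median 11.16). Ccl6 (spot 6454), a myeloid CC chemokine, and Cxcl14 (spot 8326), a chemokine of epithelia, were above in 26 mice. Il16 (spot 3674), a ligand of CD4, was above in 25 mice, and Ccl7 (spot 2894), which attracts monocytes, in 24. Cxcl5 (spot 1642), an epithelial attractant of neutrophils, and Cxcl7 (spot 9833), the platelet basic protein, were above in 21 mice each. Ccl5 (spot 2077) and Il1f6 (spot 2889) were above in 17 and Ccl12 (spot 4884) in 16. Chemokines were 9 of these 11 clones and 38 of the 59 ligand clones spotted. Clones of Cxcl1, Ccl2, Ccl3, Ccl4, Il10 and Il4 were above the empty spots in no OA mouse, and Il1b (spot 6637) in 8.

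Among the receptors, 3 were above the empty spots in all 27 OA mice. Il17ra (spot 5849), the common chain for interleukin 17 cytokines, ran from 10.54 to 11.81 (median 11.24). Ifnar1 (spot 5651), a chain of the type I interferon receptor, ran from 10.94 to 11.96 (median 11.33), and Tnfrsf1a (spot 3032), the TNF receptor with a death domain, from 11 to 12.06 (median 11.41). Il4ra (spot 1455), the interleukin 4 receptor chain, was above in 23 mice, Il1r1 (spot 5043), the signalling interleukin 1 receptor, in 22, Il2rg (spot 2661), the common gamma chain, in 19, Csf1r (spot 9873) in 18 and Tnfrsf12a (spot 4853) in 16. Of the others, Tnfsf5ip1 (spot 1415), today named Psmg2, a proteasome assembly chaperone taken in by its old symbol, was above in all 27 mice. Of the 3 clones of Tnfaip1, induced by TNF, 2 were above in 22 and 26 mice, and Tnfaip8l2 (spot 1319), a negative regulator of immune receptors, in 23.

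Of the 31 member symbols with more than 1 clone, 11 had clones on both sides of the empty-spot rule, 20 had none above and 0 had all above. All clones of a symbol shared the sign of the intermediate minus early difference in 21 of the 31 and of the late minus intermediate difference in 19. Over the 27 OA mice, the lowest correlation between clones of the same gene had a median of 0.16 and was highest for Ccl6, at 0.82. These correlations are descriptions over mice that share the membranes and the normalization. The Il17ra clone above in all 27 mice had a partner (spot 4217) above in 0. The results below therefore belong to clones.

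Whether any member changed over the time-course was asked with limma's moderated F test over the 6 time points, with each mouse as a replicate. After Benjamini-Hochberg adjustment over all 7625 clones, 0 of the 125 member clones passed 5%, against 2.01% of all clones (153). At an unadjusted p under 0.05 there were 16 members (12.8%), against 15.8% of all clones. The lowest adjusted p among members was 0.134, for Il2rg (spot 3352). Among clones that exceeded the empty spots in every mouse, the nearest was Il17ra (spot 5849, adjusted p = 0.138), with means of 11.13 ± 0.25 (SD, n = 4), 11.16 ± 0.34 (n = 6), 11.14 ± 0.18 (n = 7), 11.38 ± 0.13 (n = 4), 10.96 ± 0.04 (n = 3) and 11.67 ± 0.13 (n = 3) from 1 to 24 hours. Its 3 mice at 18 hours were lower than its 3 mice at 24 hours.

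Between stages, 6 member clones were called by limma's contrasts with the same adjustment. In the intermediate against the early stage, 1 member clone was higher, as 1.48% of all clones were, and 2 were lower, as 1.15% of all clones were. In the late against the intermediate stage, 2 were higher, against 1.34% of all clones, and 1 was lower, against 1.77%. In the late against the early stage 0 members passed in either direction, against 1.69% of all clones higher and 1.11% lower, with a lowest adjusted p of 0.0601. At an unadjusted p under 0.05 the 3 contrasts held 22, 13 and 20 members (17.6%, 10.4% and 16%), against 18%, 16.1% and 21.7% of all clones. The shares of members are thus near those of all clones, and the median difference over members was -0.02, -0.01 and -0.01, against 0 over all clones in each contrast. Of the 512 empty spots, 0.977%, 1.37% and 0.586% passed the same 3 contrasts.

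**Figure D2:**
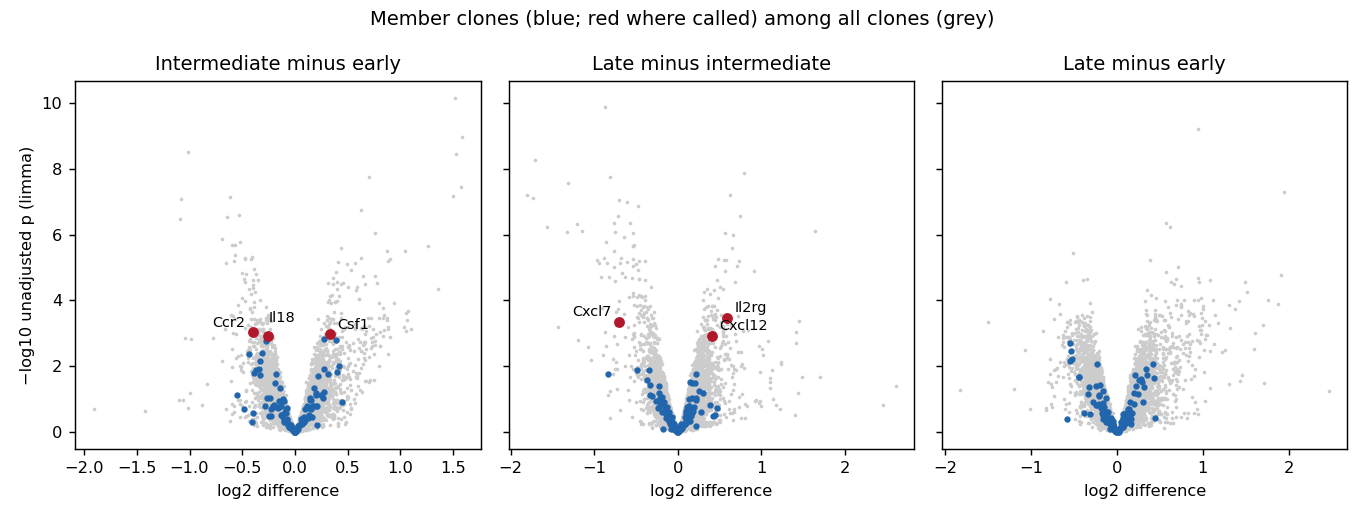
log2 difference between stages (x axis) against -log10 of limma's unadjusted p (y axis), with 7625 clones in grey, the 125 member clones in blue and the 6 called member clones in red with their symbols. The members lie within the cloud of all clones, and the called ones differ by at most 0.71 on the log2 scale.

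Csf1 (spot 1178), the growth factor of macrophages, was higher in the intermediate stage. Its early mice lay between 7.98 and 8.71 (median 8.18) and its intermediate mice between 8.30 and 8.97 (median 8.57), so that the groups overlap. It rose by 0.33 ± 0.09 (SE) on the log2 scale, 1.26-fold (adjusted p = 0.0444), and the clone was above the empty spots in 1 of 27 mice. Within lot 2, named by the number after the letter L in the mouse labels, the difference was 0.54 (3 against 6 mice), and within lot 3 it was -0.03 (5 against 4 mice). The second Csf1 clone (spot 8288) differed by 0.15 (adjusted p = 0.372).

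Ccr2 (spot 1768), the receptor of Ccl2 on inflammatory monocytes, was lower in the intermediate stage. Its early mice lay between 7.51 and 8.46 (median 8.15) and its intermediate mice between 7.38 and 8.01 (median 7.66). It fell by 0.40 ± 0.11 (SE), to 0.758 of its early level (adjusted p = 0.0404), and the differences within lots 2 and 3 were -0.37 and -0.35. Il18 (spot 4728), a cytokine processed by caspase-1, fell by 0.25 ± 0.07 (SE), to 0.84 of its early level (adjusted p = 0.0491). Its mice lay between 7.80 and 8.45 (median 8.31) in the early and between 7.82 and 8.32 (median 8.02) in the intermediate stage, and it differed by -0.37 and -0.16 within lots 2 and 3. Both clones overlapped between the stages and were above the empty spots in 0 of 27 mice. Clones of B cell markers fell in the same contrast, 6 of 9, with a mean level between 7.67 and 8.20 in the early and between 7.25 and 7.78 in the intermediate mice, and 0 of them above the empty spots in 14 mice. Of 18 T cell clones Cd3g (spot 4912) fell by 0.47 (adjusted p = 0.0103), and of 10 endothelial clones Tek (spot 364) fell by 0.56 (adjusted p = 0.0426), each the 1 called of its list. The part of these cells in the falls of Ccr2 and Il18 was not tested.

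Cxcl7 (spot 9833), released by platelets and cleaved to a neutrophil attractant, was the called clone that stood above the empty spots in most mice. Its intermediate mice lay between 9.47 and 10.55 (median 9.80) and its late mice between 8.13 and 9.46 (median 9.31). The highest late mouse lay just below the lowest intermediate one. That gap is far smaller than the SD of 0.29 between microarrays of the same mouse for this clone. It fell by 0.71 ± 0.18 (SE), to 0.612 of its intermediate level (adjusted p = 0.0241), and by 0.46 within lot 1 (6 against 3 mice). The early mice, from 8.87 to 10.05 (median 9.60), overlapped both. S100a8 (spot 4736), a neutrophil protein, fell by 1.44 in the same contrast (adjusted p = 0.0295, and 0.269 with lot as a block). It was the 1 called of 6 clones of neutrophil markers, 3 of them above the empty spots. Their mean level, S100a8 included, lay between 9.34 and 10.04 in the intermediate and between 9.10 and 9.58 in the late mice. In the early mice it lay between 8.99 and 10.46. The part of neutrophils in the fall of Cxcl7 was not tested. Both clones of Cxcl4, the other platelet chemokine listed, differed by -0.20 and -0.14 (adjusted p = 0.422 and 0.601).

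Il2rg (spot 3352), the gamma chain shared by several interleukin receptors, and Cxcl12 (spot 5848), the stromal ligand of Cxcr4, were higher in the late than in the intermediate stage. Il2rg lay between 7.84 and 8.93 (median 8.30) in the intermediate and between 8.65 and 9.21 (median 9.04) in the late mice, and rose by 0.60 ± 0.15 (SE), 1.51-fold (adjusted p = 0.0205). Within lot 1 its difference was 0.14. Cxcl12 lay between 8.48 and 9.24 (median 8.77) and between 8.98 and 9.39 (median 9.31), and rose by 0.41 ± 0.11 (SE), 1.33-fold (adjusted p = 0.0423), with 0.47 within lot 1. The groups overlap in both clones. Il2rg was above the empty spots in 4 and Cxcl12 in 9 of 27 mice, and their other clones (spots 2661 and 8304) differed by 0.47 and -0.07 (adjusted p = 0.547 and 0.904). The second Il2rg clone thus differed in the same direction as the first, with an SE of 0.34. Its early mouse P7L2 stood at 12.78, against 10.03 in the next highest, and enters the spread that the fit shares between stages.

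**Figure D3:**
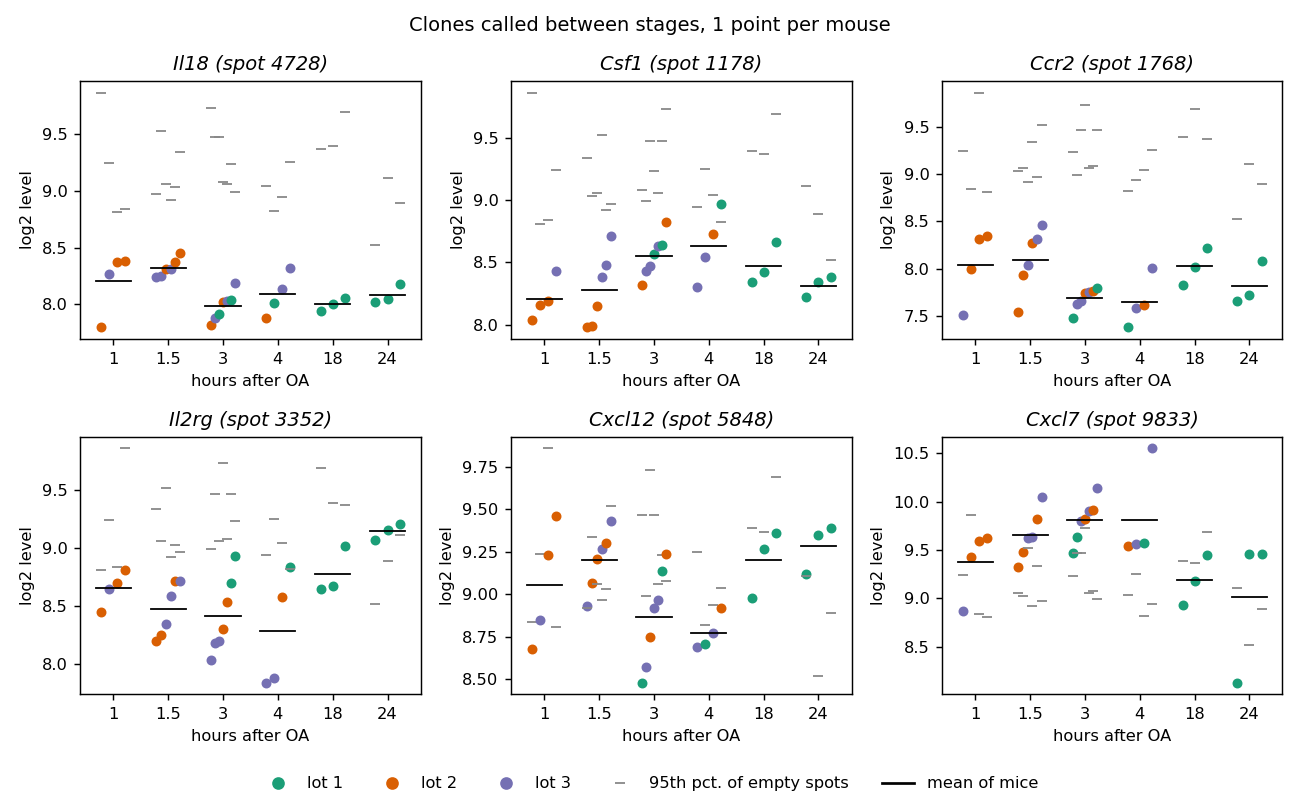
log2 level (y axis) of the 6 clones called between stages in each OA mouse, by hours after injection (x axis), with mice coloured by lot, black lines for the mean of each time point and grey ticks for each mouse's 95th percentile of the empty spots. Only Cxcl7 lies mostly above the ticks, and all late mice are of lot 1.

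With lot as a block, 0 of the 6 calls passed in limma (adjusted p from 0.13 to 0.973). The early stage held 6 mice of lot 2 and 4 of lot 3, the intermediate stage 3, 3 and 5 mice of lots 1, 2 and 3, and the late stage 6 mice of lot 1, so that stage and lot cannot be told apart between late and early mice. Leaving out 1 mouse at a time, the call was lost in 21 of 27 cases for Il18, 17 for Csf1, and 13 each for Ccr2 and Cxcl12. Without P7L2, Csf1 differed by 0.32 and Il18 by -0.25 (adjusted p = 0.0721 for each in limma). Il2rg lost its call without P6L1, P7L1 or P8L1, with differences of 0.56, 0.57 and 0.55 (adjusted p = 0.0601, 0.0516 and 0.0659). Cxcl7 lost it without P8L1, at -0.52 (adjusted p = 0.0975), or P10L1, at -0.67 (adjusted p = 0.0584). Serum means were also subtracted, each of 1 or 2 mice, with no serum mouse at 4 hours. The differences of Csf1, Ccr2 and Cxcl12 then turned to -0.03, 0.28 and -0.16. That fit does not count the spread of the serum mice.

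Of the 6 genes called between stages, the promoter is shown for the 2 whose window holds a motif searched here. The letters can thus be seen beside the values above. All 90 symbols matched RefSeq, 85 as written and 5 as synonyms (Cxcl7 is Ppbp today), and 68 have windows of 250 bases before to 50 after a start, on build GRCm38.p6. The motifs searched were the kB site bound by NF-kB, TTCNNNGAA bound by STAT factors and TGACTCA bound by AP-1, each on both strands, and TATAAA on the gene's strand. They occur in 15.9%, 14.6%, 12.2% and 14.6% of 82 member windows and in 4.51%, 8.3%, 5.2% and 8.32% of all 32851 windows. Capitals mark the kB site in Csf1 and TATAAA in Cxcl7, and the windows of Il18, Ccr2, Il2rg and Cxcl12 hold none of these letters.
Csf1, chr3:107760420-107760719, minus strand: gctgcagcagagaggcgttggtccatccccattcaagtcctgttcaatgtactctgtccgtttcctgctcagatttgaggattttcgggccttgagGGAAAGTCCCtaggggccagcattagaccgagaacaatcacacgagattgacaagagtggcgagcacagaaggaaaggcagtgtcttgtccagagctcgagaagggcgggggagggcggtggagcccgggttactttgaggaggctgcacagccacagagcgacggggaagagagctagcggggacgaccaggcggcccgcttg
Cxcl7 (Ppbp), chr5:90768268-90768567, plus strand: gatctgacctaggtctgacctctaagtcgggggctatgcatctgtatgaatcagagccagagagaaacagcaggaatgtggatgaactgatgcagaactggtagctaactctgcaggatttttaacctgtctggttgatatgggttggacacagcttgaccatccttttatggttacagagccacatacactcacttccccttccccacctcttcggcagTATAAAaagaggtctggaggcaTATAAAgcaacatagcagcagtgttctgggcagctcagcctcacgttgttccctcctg

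Members that did not pass the tests are given as values. Ccl6 was the gene whose clones went together most closely, and both had their highest stage mean in the early mice. Spot 6454 lay between 9.55 and 10.84 (median 10.20) in the early, between 9.40 and 10.30 (median 9.69) in the intermediate and between 9.36 and 9.96 (median 9.48) in the late mice. The late minus early difference was -0.55 (adjusted p = 0.0601), and -0.54 for spot 3962 (adjusted p = 0.0709). Among the 24 member clones whose mean exceeded the empty spots, Ccl6 (spot 6454) was the 1 called between late and early (limma, adjusted p = 0.036), beside 188 of the 2385 clones tested. Stage and lot cannot be told apart in this contrast. Cxcl15 (spot 7885) had means of 12.93 ± 0.59 (SD, n = 4) at 1 hour and 12.28 ± 0.13 (n = 3) at 24 hours, with a late minus early difference of -0.44 (adjusted p = 0.153).

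Il1b (spot 6637), a main product of activated macrophages and neutrophils, spread widely between mice. At 1 hour its 4 mice stood at 8.04, 8.60, 9.12 and 10.58, and at 3 hours its 7 mice lay between 8.30 and 9.86 (median 9.62). Its late mice lay between 7.67 and 8.74. The late minus intermediate difference was -0.84 (adjusted p = 0.187), and the F test gave an adjusted p of 0.25. Ccr1 (spot 7883), a receptor of myeloid cells, had means between 8.35 and 8.50 from 1 to 4 hours, 7.56 ± 0.13 (SD, n = 3) at 18 hours and 8.21 ± 0.28 (n = 3) at 24 hours (F test, adjusted p = 0.23). Il10 and Il4, which restrain inflammation, had time point means from 6.30 to 6.69 and from 5.77 to 6.21, below the empty-spot threshold, with adjusted p = 0.345 and 0.499.

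Serum mice give the background of injection and anaesthesia. The deposited intensities of all 60 microarrays were quantile-normalized together for this purpose, and OA minus serum was averaged over the 5 shared time points in limma. Among the 125 member clones 38 were higher in OA mice, as 34.3% of all clones were, and 36 were lower, as 27.3% of all clones were. The members' 59.2% is no larger than the 61.6% of all clones. Of the 512 empty spots, which hold no gene, 305 (59.6%) passed the same threshold, 10.9% higher and 48.6% lower, with a median difference of -0.28. Of the member calls, 63 were of clones not above the empty spots. The OA and serum mice did not overlap at 15 member clones, against 12.7% of all clones. The difference between OA and serum varied among the 5 times at 0 members (limma), against 0.105% of all clones, and at 10 members (8%) and 7.97% of all clones at an unadjusted p under 0.05. The spread of serum mice rests on 3 degrees of freedom, and the part in the member calls of what moved the empty spots was not tested. With the fitted signal at calculated diameter in place of the image signal, 30 of the 125 members were called, beside 1859 of all 7625 clones.

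**Figure D4:**
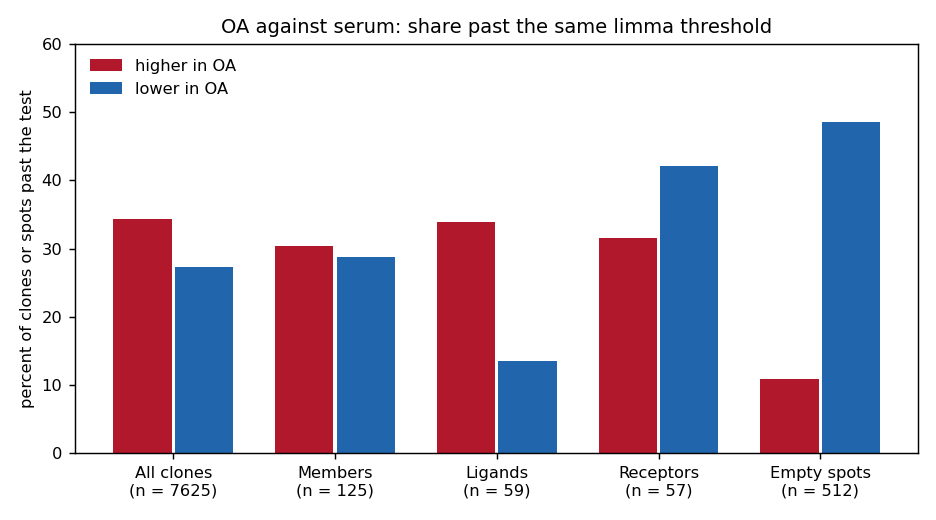
Percent of clones or spots (y axis) that passed limma's threshold of OA against serum, higher (red) or lower (blue) in OA, for all clones, members, member ligands and receptors, and empty spots (x axis, number in brackets). Members stand at 30.4% and 28.8%, and the empty spots, which carry no gene, at 10.9% and 48.6%.

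Of the 24 clones above the empty spots, 9 were higher and 2 lower in OA mice, while 13 did not pass, against 58.3% called among all 2432 such clones. These clones were picked by their level in OA mice alone. The pick takes in clones high only in OA mice and leaves out those high only in serum mice. The counts of higher and lower clones therefore cannot be weighed against each other. Il1r1 (spot 5043) lay between 8.99 and 10.42 (median 9.60) in OA and between 8.07 and 8.78 (median 8.36) in serum mice, without overlap, and was higher by 1.29 ± 0.16 (SE, adjusted p = 8.05e-08). Il16 (spot 3674) lay between 9.20 and 10.97 (median 9.77) and between 8.41 and 8.82 (median 8.65), and was higher by 1.11 ± 0.14 (SE, adjusted p = 8.69e-08). Il1f6 (spot 2889), an interleukin 1 family member of epithelia, was higher by 0.93 ± 0.10 (SE, adjusted p = 2.39e-09), also without overlap, but by 0.24 (adjusted p = 0.347) when the fitted signal at calculated diameter was used. The second clones of Il1r1 (spot 7853) and Il16 (spot 7347), above the empty spots in 0 OA mice, differed by 0.38 (adjusted p = 0.00833) and -0.12 (adjusted p = 0.393). Il1r1 (spot 5043), Il16 (spot 3674), Il1f6, Csf1r (spot 9873) and a Tnfaip1 clone (spot 9765) were above the empty spots, counted on intensities, in at least 14 OA mice and in 0 of 8 serum mice, as 4.79% of all clones were. Of 20 member clones above in at least 4 of the 8 serum mice, 16 were also above in at least 14 OA mice and 4 were not. By the same count a serum mouse had 8 to 26 member clones above (median 17) and an OA mouse 11 to 38 (median 25). All clones differed in the same direction, with a median of 25% above in serum mice and, by the deposited values, 34% in OA mice. Csf1r, the receptor of Csf1 on macrophages, lay between 8.44 and 9.97 (median 9.17) in OA and between 8.31 and 9.11 (median 8.77) in serum mice, overlapping, with a difference of 0.52 ± 0.16 (SE, adjusted p = 0.00807).

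Of the clones above in all mice, Cxcl15 (spot 7885) was higher by 0.66 ± 0.17 (SE, adjusted p = 0.00127), Ccl24 (spot 5078) by 0.65 ± 0.12 (adjusted p = 2.85e-05), Il17ra (spot 5849) by 0.41 ± 0.10 (adjusted p = 0.00134), Tnfrsf1a by 0.38 ± 0.12 (adjusted p = 0.0072) and Ifnar1 by 0.29 (adjusted p = 0.0194). The OA and serum mice overlapped in each of these 5 clones. The clone of Tnfsf5ip1 (spot 1415) differed by -0.11 (adjusted p = 0.594). Il4ra (spot 1455), the receptor chain for interleukins 4 and 13, was lower by 0.46 ± 0.08 (SE, adjusted p = 3.32e-05), with OA mice between 8.87 and 9.69 (median 9.38) and serum mice between 9.44 and 10.04 (median 9.89). The other lower clone was of Tnfaip1 (spot 1469, -0.24, adjusted p = 0.016). Of the 6 clones called between stages, Ccr2 was higher in OA than in serum mice by 1.05 ± 0.15 (SE, adjusted p = 8.99e-07) and Il2rg (spot 3352) lower by 0.86 ± 0.13 (adjusted p = 2.28e-06). The differences of Csf1 (spot 1178), Il18, Cxcl12 (spot 5848) and Cxcl7 were -0.17, -0.02, 0.01 and 0.01 (adjusted p from 0.109 to 0.962).

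**Figure D5:**
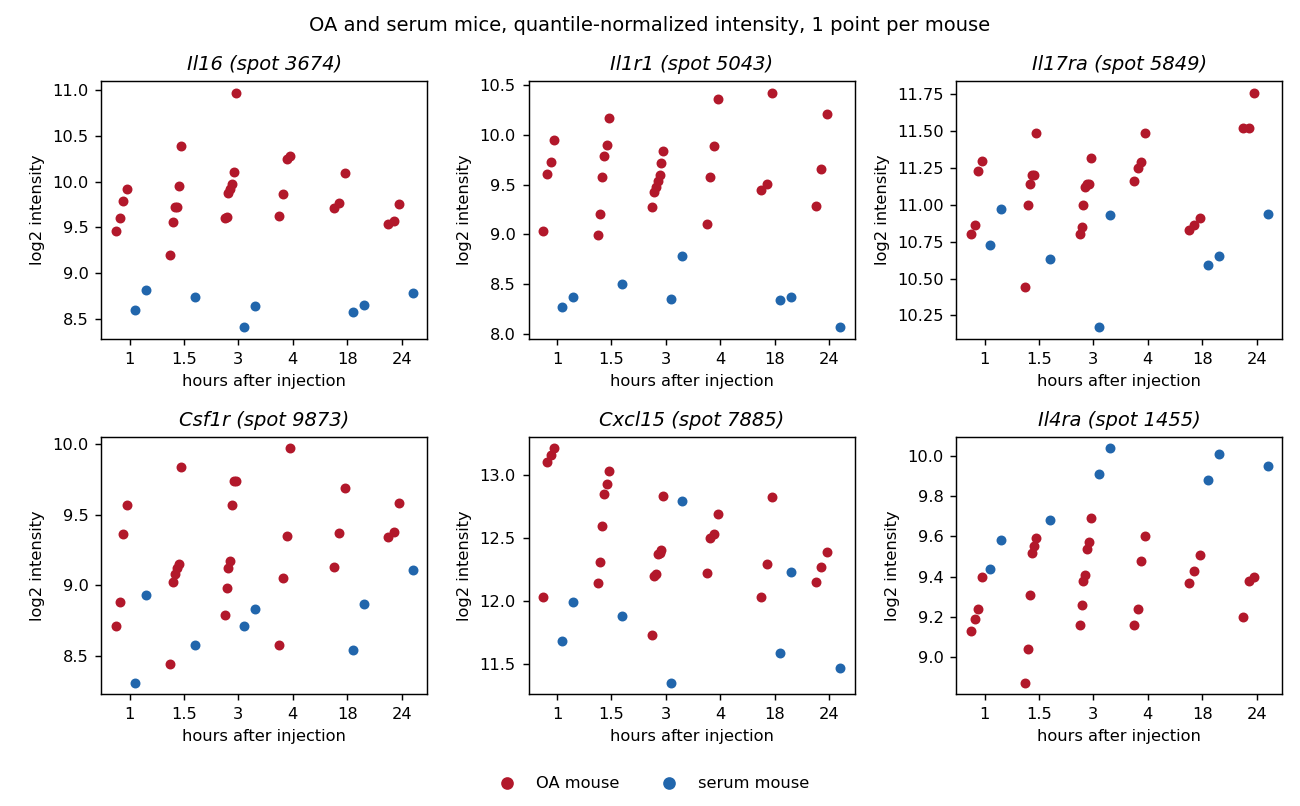
log2 quantile-normalized intensity (y axis) of 6 member clones in OA (red) and serum (blue) mice by hours after injection (x axis), 1 point per mouse, with no serum mouse at 4 hours. Il16 and Il1r1 do not overlap between OA and serum, while Il17ra, Csf1r, Cxcl15 and Il4ra do.

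The 4 lowest adjusted p-values belonged to clones that were above the empty spots in 0 OA mice. Cxcl11 (spot 86), an interferon-induced ligand of Cxcr3, was higher by 1.10 ± 0.07 (SE, adjusted p = 5.8e-13), and Tnfsf11 (spot 2548), RANK ligand, by 1.05 ± 0.08 (adjusted p = 2.02e-12), each above the empty spots in 0 OA and 0 serum mice. Il1rn (spot 3665), the interleukin 1 receptor antagonist, was lower by 0.96 ± 0.08 (SE, adjusted p = 5.81e-11), with OA mice between 7.96 and 8.70 and serum mice between 9.05 and 9.58, and was above in 4 serum mice. Ccl3 (spot 3186), an attractant of monocytes, was higher by 0.87 ± 0.09 (SE, adjusted p = 1.37e-09). Cxcl12 (spot 8304) was lower by 1.25 ± 0.15 (SE, adjusted p = 2.62e-08), while its other clone (spot 5848) differed by 0.01 (adjusted p = 0.92). Among the 20 clones with the lowest adjusted p-values were also Ccl4 (0.57), Il15ra (1.17), Ccr6 (1.04), Il4 (0.72), Il17b (0.51), Il23a (spot 1487, 1.00), Il1r2 (0.59) and Ccr2 (1.05), higher in OA mice, and Tnfrsf4 (-0.82), Tnfaip2 (-0.72) and Il2ra (-0.79), lower. With the fitted signal at calculated diameter Ccr6, Il4, Il17b and Il2ra were not called (1.08, 0.69, 1.22 and -1.33, with adjusted p = 0.218, 0.412, 0.113 and 0.0873), and at constant diameter Ccr6 differed by 0.17 (adjusted p = 0.47). Il17ra and Il23a each had called clones of opposite sign, 0.41 and -0.23 for Il17ra and 1.00 and -0.68 for Il23a. The second clone of Ccl3 (spot 7407) differed by 0 (adjusted p = 0.97).

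Other genes of cytokine signalling outside the rule, such as Janus kinases, STAT factors, SOCS and TRAF proteins and NF-kB subunits, were listed on 68 clones of 47 symbols, 23 of them above the empty spots in 14 mice. Over the 6 time points 0 passed limma's F test, and 14 of the 68 had an unadjusted p under 0.05, against 15.8% of all clones. Of all clones, 1.48% were called higher and 1.15% lower intermediate against early, and 1.34% and 1.77% late against intermediate. Late against early it was 1.69% and 1.11%. Among the 68 clones, 1 was higher and 0 lower in the intermediate than in the early stage. This was Cklf (spot 8960), a chemokine-like factor, by 0.81 ± 0.22 (SE, adjusted p = 0.0397). In the late against the intermediate stage, Traf1 (spot 321), an adaptor of TNF receptors, rose by 0.48 ± 0.11 (SE, adjusted p = 0.0143), Xcl1 (spot 3183), lymphotactin, by 0.27 ± 0.08 (adjusted p = 0.0467), and Map3k7ip2 (spot 8811), a partner of the kinase TAK1, fell by 0.29 ± 0.08 (adjusted p = 0.0425). These Traf1, Xcl1 and Map3k7ip2 clones were above the empty spots in 4, 0 and 0 of 27 mice. The other clones of Xcl1 (spot 9265) and Map3k7ip2 (spot 4758) differed by 0.19 and -0.24 (adjusted p = 0.293 and 0.171). In the late against the early stage both Cklf clones were higher by 0.97 (adjusted p = 0.0429 for each) and Fadd (spot 8353), a death-domain adaptor, by 1.05 (adjusted p = 0.0475). The other Fadd clones (spots 3928 and 9905) differed by -0.07 and 0.05 (adjusted p = 0.666 and 0.819). With lot as a block none of these calls passed in limma, with adjusted p = 0.187 for Cklf (spot 8960) between intermediate and early, 0.58, 0.258 and 0.973 for Traf1, Xcl1 and Map3k7ip2, and 0 of all 7625 clones called between late and early (345 at an unadjusted p under 0.05). Against serum 24 of the 68 clones were higher and 19 lower, beside 34.3% and 27.3% of all clones and 59.6% of the empty spots past the same threshold in either direction.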

How the data were processed

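The authors deposited, for each of 60 microarrays, spot intensity values quantified with Bzscan2, by image or by a spot model. They also deposited a table of log2 values that they had quantile-normalized, whose OA columns were used here as given. Their methods describe correction for neighbourhood effects and local background. Whether the deposited intensity columns precede that step is not given in the sources used here. Time-course results use these deposited log2 values, averaged per mouse over 50 OA microarrays of 27 mice, without subtraction of serum. OA against serum uses the image intensity at constant diameter (floor of 1, log2, quantile over 60 microarrays), 8 serum mice included, the 2 serum microarrays at 1.5 hours counting as 1 mouse. A microarray of P7L3 labelled both 3 and 1.5 hours was taken as 3 hours, and 1 microarray at 1.5 hours was left out because its mouse name belongs to a mouse at 4 hours. Tests used limma 3.58.1 in R 4.3.3 (jsonlite 2.0.0) on 7625 clones with a gene name, with Benjamini-Hochberg adjustment at 5%, and were tried on simulated data. The number of microarrays limits the precision. Figures were drawn with matplotlib 3.10.9 and pandas 2.3.3, and promoters searched in Python 3.11.15.

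Each mouse was a replicate, and the number after the letter L was read as a lot, which no source explains. The members and gene lists were chosen with earlier results of these data known. Named were member clones called in a test (at most 20 per test by adjusted p), those of a list of cytokine and chemokine genes, those above the empty spots in all OA mice, and other pathway clones called. The remaining clones above the empty spots, the second clones of named genes and Ccl6 under the dim-clone filter were singled out after their values were seen. Symbols are as spotted, and some are old. The values of a member gene are not reported here. The alternatives tried were another normalization or signal, a filter on dim clones, lot as a block, serum subtraction, microarrays as samples, the doubtful microarrays and leaving out each mouse.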

Additional observations from a re-analysis of the deposited data

Results flagged for a closer look

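Among 240 groups of 4 to 7 mice, for the 60 named clones at 1, 1.5, 3 and 4 hours, 13 held a mouse far from the others of its time point by Dixon's criterion, which chance gives in about 1 of 20 groups. The mouse P3L2 at 1 hour was highest for Cxcl5 (spot 1642, 9.64, nearest 9.46) and Cxcl12 (spot 8304, 8.59, nearest 8.23) and lowest for Il12rb2 (spot 6480, 7.41, nearest 7.53). At 1 hour P2L3 was lowest for Cxcl15 (spot 7885, 12.05, nearest 13.16). At 1.5 hours P7L2, the mouse whose profile over all clones correlated least with the others (median r of 0.88), was highest for Cxcl1 (spot 2204, 8.88, nearest 7.72) and lowest for Tnfaip2 (spot 4227, 7.16, nearest 7.69). At 3 hours P8L3 was highest for Il23a (spot 1487, 8.80, nearest 7.97) and Il16 (spot 3674, 11.07, nearest 10.21), and P7L3 was highest for Ccl25 (spot 6160, 8.18, nearest 7.33). At 4 hours P12L3 was highest for Tnfsf5ip1 (spot 1415, 10.28, nearest 9.73) and lowest for Cxcl12 (spot 8304, 7.59, nearest 8.06), P4L1 was lowest for Ccl25 (spot 214, 7.28, nearest 7.70), and P13L3 was highest for Cxcl7 (spot 9833, 10.55, nearest 9.57).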

How the results depend on the processing

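Counts of called members were 0 by the F test, 3 intermediate against early, 3 late against intermediate and 0 late against early. They became 71, 39, 30 and 22 when serum means of the time points were subtracted. Of all clones 4264, 2529, 1653 and 1518 then passed. Each subtracted mean rests on 1 or 2 serum mice, whose spread the fit does not count. No serum mouse was measured at 4 hours, and how the OA mice of that time were treated is not stated here. With the serum means subtracted, Csf1 (spot 1178) turned to -0.03, Ccr2 (spot 1768) to 0.28 and Cxcl12 (spot 5848) to -0.16, and the cause was not tested. Lot as a block left 0 of the members' calls between stages, beside 68, 39 and 0 of all clones in the 3 contrasts. Own quantile normalization gave 5 and median centring 6 intermediate against early, beside 211 and 274 of all 7625 clones. Each microarray with its mouse as a random block gave 5 by the F test, 6 intermediate against early and 4 late against early. Beside them 438, 391 and 416 of all clones passed. Of those 6, 1 was also a main call, as were 0 of the 39 and 1 of the 30 after serum subtraction. The 5 and 6 under own quantile normalization and median centring held all 3 main calls. The fitted signal gave 1 by the F test and 0 late against intermediate, beside 62 and 85 of all clones. The filter on dim clones, which leaves 24 members, gave 0 intermediate against early, 1 late against intermediate and 1 late against early. Of all 2385 clones left by the filter, 149, 109 and 188 passed. The unresolved microarray gave 1 late against early, beside 355 of all clones. Leaving out each mouse gave 0 to 1, 0 to 8, 0 to 3 and 0 to 3. Intermediate against early it was 0 without P2L1, P2L2, P3L1, P4L1, P6L2, P11L2 or P16L2, 1 without P3L2, P4L2, P7L1, P7L2, P7L3, P10L1 or P11L1, 5 without P9L3 or P12L3, 7 without P2L3 and 8 without P4L3. Late against intermediate it was 0 without P8L1 and 1 without P6L1 or P7L1, late against early 1 without P12L3, 2 without P2L3 or P4L2 and 3 without P4L3, and by the F test 1 without P2L3, P4L1, P4L2 or P4L3. OA against serum called 74 members, 66 to 75 without a mouse, 30 with the fitted signal at calculated diameter and 11 of 24 with the dim-clone filter. Over all clones the main count was 4700, with 1859 at calculated diameter and 1382 of 2385 with the filter. Clones above the empty spots numbered 24, 24 to 26 without a mouse, 6 at the 99th percentile and 6 when every mouse was required. No paired analysis was possible because the OA mice carry their own labels and the serum numbers were given in accession order.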

Other observations

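The clones of Fadd gave unlike readings. Fadd (spot 8353) was above the empty spots in 25 of 27 OA mice and was higher in OA than in serum mice by 4.48 on the log2 scale, while the other Fadd clones (spots 3928 and 9905) were above in 0 mice and differed by 0.20 and 0.05. The Cklf clones (spots 4746 and 8960) were above in all 27 OA mice and higher by 4.38 and 5.00. Il2rg (spot 2661) stood at 12.78 in the mouse P7L2 at 1.5 hours, against 10.03 in the next highest of the 27 OA mice.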
